A study of Drosophila melanogaster with 24 samples.

Results

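Cuticle protein genes were described in fly heads: the genes of the count table whose names begin with Cpr, Ccp or Lcp followed by a digit, or with Twdl, and that had at least 10 counts in at least 2 libraries. Of 16727 genes in the table, 117 had such a name and 44 passed the minimum. The 44 genes comprised 35 of 70 Cpr genes, 1 of 7 Ccp genes, 3 of 15 Lcp genes and 5 of 25 Twdl genes. Of the 73 genes left out, 17 had no count in any of the 24 libraries. Just inside the minimum were Cpr72Eb and Twdlalpha, with 10 counts in 2 libraries each, and just outside it were Ccp84Aa, Ccp84Ab, Cpr47Eb, TwdlY and TwdlZ, with 10 counts in 1 library each. The minimum was met by measured values, and 7 of the 44 genes did not meet it within each genotype taken alone. Of these, Cpr78Ca, Cpr49Ah, Cpr64Aa and Twdlalpha reached 10 counts in wild-type libraries only and Cpr72Eb in mutant libraries only, while Ccp84Ag and Cpr78Cc had a single such wild-type library.

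Insect cuticle is a layered extracellular matrix of chitin fibres and proteins. It is laid down at the body surface, the mouthparts, the antennae, the tracheae and the outer lens of each eye facet. The Cpr, Ccp and Lcp genes (cuticular protein with the Rebers and Riddiford motif, a cuticle cluster, and larval cuticle protein) mostly encode proteins of one family with a chitin-binding motif, while the Tweedle proteins encoded by Twdl genes form a separate family that helps to shape the body. Most are known for bursts of expression around moults, and Cpr66D and Cpr72Ec are known as components of the adult corneal lens. No specific function beyond family membership is given below where none is well established.

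Poly(A) RNA was sequenced from heads of wild-type flies (strain w1118, the control) and of cwo5073 mutant flies at zeitgeber time (ZT, hours after lights on) 2, 6, 10, 14, 18 and 22. Its gene, clockwork orange (cwo), codes for a repressor that acts in the circadian clock, and the design asks how the mutant differs from wild type over the day. All flies were kept in cycles of 12 h of light and 12 h of dark at 25 °C, for 3 days before collection. There were 2 libraries for each genotype and time, 12 for each genotype. The labels describe the mutant by its allele name alone, and the sources used here do not give the flies' sex, age or number pooled per library.

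The libraries held 11319605 to 19638611 estimated counts. The cwo transcript itself was at 51.1 to 174 CPM (counts scaled to library size by TMM) in wild type and at 242 to 912 CPM in the mutant, without overlap between the genotypes, and was higher in the mutant by 2.44 ± 0.07 (SE) on the log2 scale (edgeR adjusted p = 8.8e-12). One library, wild-type ZT2 replicate 2, was unlike the rest, with a median Spearman correlation of 0.893 with the other libraries against 0.953 to 0.982 for the remaining ones. Long transcripts were lowest relative to short ones in it and in wild-type ZT22 replicate 1. The median log2 deviation of long less that of short abundant genes was -0.95 and -1.04 there. It was 0.32 to 0.59 in mutant replicate 1, -0.29 to 0.28 in mutant replicate 2 and -0.48 to 0.25 in the other wild-type libraries. Several results that rest on wild-type ZT2 replicate 2 or wild-type ZT22 replicate 1 are also given without them. Replicate numbers also mattered in the mutant, where libraries of the same number shared deviations across times, so values for each number stand beside the results.

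Most cuticle protein genes were weakly expressed in heads. By mean CPM, 11 of the 44 genes were at 10 or more, 14 lay between 1 and 10, and 19 lay under 1. The 44 genes together took 0.0625% to 0.121% of all counts in wild type (median 0.0819%) and 0.0542% to 0.0897% in the mutant (median 0.0654%), and these ranges overlapped. The 3 most heavily counted members held 56.5% of the members' counts, and the top 8 held 86.0%.

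Because members differ in length, from 453 to 4525 bases, their levels were compared per length as FPKM (fragments scaled to transcript length and library size) summed over the transcripts of a gene. Cpr65Au was the highest, with a mean of 421 FPKM in wild type, against 318 FPKM in the mutant. Cpr67B followed at 120 and 87.2 FPKM, and Cpr72Ec of the corneal lens at 95.2 and 102 FPKM. The pair of genes from one cluster, Cpr49Ag and Cpr49Ae, had 91.3 and 70.5 FPKM in wild type, and 33.0 and 49.1 FPKM in the mutant.

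Below these, Cpr57A was at 58.1 FPKM in wild type, against 47.3 FPKM in the mutant, and Cpr11B at 34.9 and 12.9 FPKM. Cpr73D was at 27.9 and 14.9 FPKM, Cpr62Bb at 18.7 and 7.09 FPKM, and Cpr47Ee at 15.8 and 23.5 FPKM. The lens gene Cpr66D was at 12.1 and 7.90 FPKM. TwdlG was the highest Tweedle gene, at 8.0 FPKM in wild type, against 7.42 FPKM in the mutant. The lowest of the 44 in wild type was Cpr72Eb, at 0.0818 FPKM, so levels spanned several orders of magnitude. The larval group was low as well: Lcp65Ac was at 2.67 FPKM in wild type, Lcp65Ag2 at 1.41 and Lcp65Ag3 at 0.806 FPKM. The last 2 and Lcp65Ag1, which fell short of the count minimum, are known as closely similar copies, and how their reads were divided is uncertain.

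**Figure D1:**
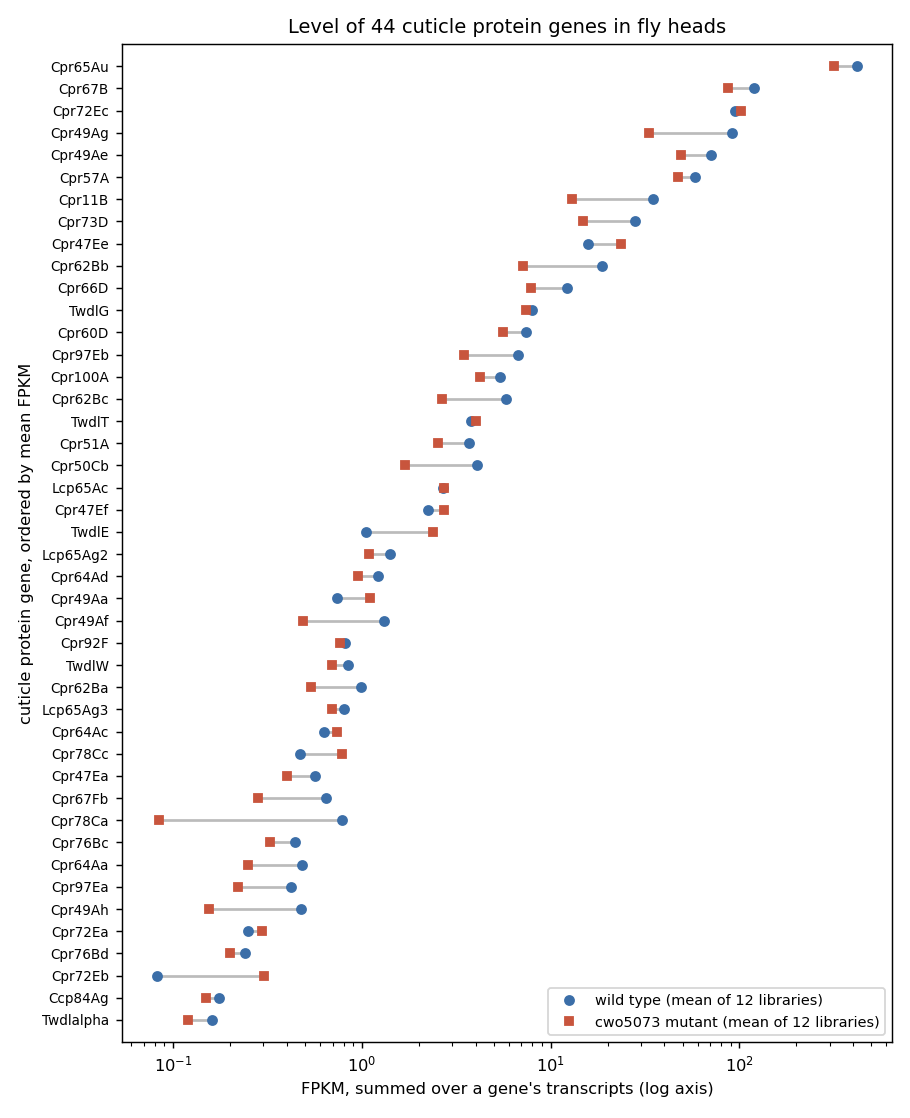
Mean FPKM of each of the 44 cuticle protein genes (log axis) in wild type (circles) and in the cwo5073 mutant (squares), each over 12 libraries, ordered by the mean over both. Cpr65Au stands at the top at 421 and 318 FPKM, Cpr49Ag, Cpr11B and Cpr62Bb have the mutant square well to the left, and Cpr47Ee has it to the right.

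Across the day, more of the cuticle protein genes were lower than higher in the mutant. Averaged over the 6 times, 15 of the 44 genes fell and 3 rose at an adjusted p under 0.05 (edgeR's quasi-likelihood test, adjusted over 11096 genes), while 26 did not pass. The background over all genes tested was 13.9% called lower, 14.1% called higher and 28% called in either direction, against 34.1% and 6.82% of the members called lower and higher. The count minimum favours a difference in members that met it only through the genotype where they were high, so these shares are a description of the set. Among the 37 genes that met it within each genotype, 13 were lower and 2 higher, with a median log2 fold change (mutant minus wild type) of -0.36. The median was also -0.36 over the 43 members with an estimate and -0.01 over all genes. The median remained -0.36 when the 5 genes with a genotype and time at 0 in both libraries were set against a floor of 3 counts per library. Of the 43, 31 had a value below 0, or 72.1%, against 51% of all genes. With gene length offsets 12 of the 15 genes stayed lower (background 11.3%), and Cpr51A, Cpr62Ba and Cpr67B lost their call. Without the 2 wild-type libraries low in long transcripts 12 did (background 10.9%), and Cpr49Af, Cpr51A and Cpr62Ba lost theirs. Nothing in the labels says that replicates came from separate cultures, so p-values here reflect only how these samples spread, and in whole heads fewer cells of a type and less RNA per cell cannot be told apart.

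**Figure D2:**
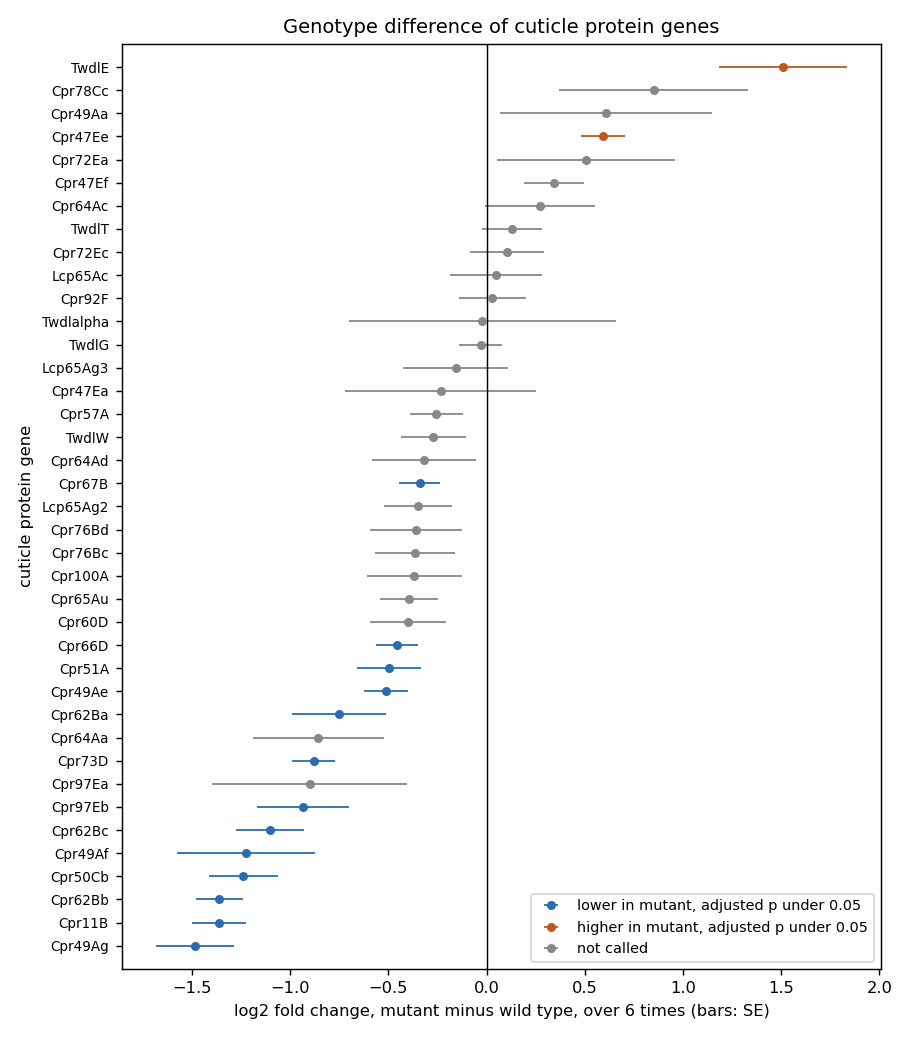
Log2 fold change (mutant minus wild type, averaged over 6 times, n = 12 libraries per genotype) with its SE for the members that had counts in every genotype and time, in blue where lower and in orange where higher at an adjusted p under 0.05. Cpr49Ag, Cpr11B and Cpr62Bb lie farthest below 0, and TwdlE lies farthest above it.

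Markers of the tissues in the head were read beside the cuticle genes. Of 10 markers of epidermis and tracheae, which are among the cell types that secrete cuticle, 6 were measured above the filter. The gene shg rose, no other passed, and the summed level was 142 to 190 CPM in wild type and 136 to 201 CPM in the mutant. Of the 10, 2 were at 0 in every library. Of the 4 corneal lens markers 3 were measured (retinin, Cpr66D and Cpr72Ec), with 1 higher and 1 lower. Cpr66D and Cpr72Ec are themselves cuticle members, and the lower one, Cpr66D, is already counted among the genes that fell. The sum of the 3 was 603 to 1512 CPM in wild type, 773 to 1035 CPM in mutant replicate 1 and 1456 to 1683 CPM in mutant replicate 2. Wild-type means were 761 CPM for retinin, 15.2 for Cpr66D and 153 for Cpr72Ec.

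Of 10 muscle markers 7 fell, with a summed level of 7018 to 8877 CPM in wild type and 5313 to 6901 CPM in the mutant, and none was at 0. Of 10 fat body markers 8 were measured, of which 5 were higher and 1 lower, and none of these was at 0 in every library. Their sum was 4786 to 33531 CPM in wild type, 41113 to 63633 CPM in mutant replicate 1 and 10288 to 15682 CPM in mutant replicate 2. Of 6 blood cell markers 2 rose, with a sum of 197 to 428 CPM in wild type, 729 to 950 CPM in mutant replicate 1 and 267 to 372 CPM in mutant replicate 2. Of 10 photoreceptor markers 5 rose and 1 fell, of 6 neuron markers 2 rose and 1 fell, of 6 glia markers 2 rose, and of 7 markers of female and male flies, which share the 3 Yp genes with the fat body list, 4 rose and 1 fell. The part of these tissue markers in the difference of the cuticle protein genes was not tested.

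Among the abundant members, 7 of the 11 at 10 CPM or more fell. Cpr49Ag had a lowest, median and highest value of 34.3, 60.7 and 130 CPM in wild type and of 8.45, 19.1 and 36.6 CPM in the mutant. Only 1 mutant library reached into the wild-type range, and the log2 fold change was -1.48 ± 0.20 (SE, adjusted p = 9.0e-05). Cpr11B had 12.9, 25.5 and 52.2 CPM in wild type and 6.13, 11.1 and 19.9 CPM in the mutant, with 8 of 12 mutant libraries below every wild-type library. Its log2 fold change was -1.36 ± 0.14 (adjusted p = 5.1e-06). The reads of Cpr11B may include some from CG43921, a gene model that overlaps it on the other strand.

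Cpr62Bb had 13.2, 17.6 and 31.7 CPM in wild type and 5.13, 7.38 and 9.91 CPM in the mutant. The genotypes did not overlap, with all mutant values lower, and the log2 fold change was -1.36 ± 0.12 (adjusted p = 9.1e-07). Cpr73D had 44.4, 58.6 and 134 CPM in wild type and 27.5, 34.7 and 43.1 CPM in the mutant, again without overlap, though the nearest libraries lay close together. Its log2 fold change was -0.88 ± 0.11 (adjusted p = 3.8e-05). The complete separation of the genotypes seen in these genes and in Cpr50Cb held for 3 members on the lower side, where 0.856% of all genes tested separated, and for 0 members on the higher side, where 0.82% did.

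Smaller changes were measured in 3 further abundant genes. Cpr49Ae had 56.3, 92.4 and 115 CPM in wild type and 35.9, 63.6 and 94.9 CPM in the mutant, with overlap between the genotypes and a log2 fold change of -0.51 ± 0.11 (adjusted p = 0.0056). The lens gene Cpr66D had 5.45, 7.79 and 58.2 CPM in wild type and 4.17, 7.57 and 21.9 CPM in the mutant. Its highest values came from ZT2 in both genotypes, and averaged over the times the log2 fold change was -0.46 ± 0.11 (adjusted p = 0.0073). Cpr67B had 64.9, 112 and 236 CPM in wild type and 65.4, 91.6 and 152 CPM in the mutant. No mutant library lay below the wild-type range, and the log2 fold change of -0.34 ± 0.10 (adjusted p = 0.027) lost its call in 17 of 38 alternative analyses, 11 of them leaving out a single library.

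Of the 14 genes between 1 and 10 CPM, 4 fell. Cpr50Cb had 2.80, 3.51 and 4.65 CPM in wild type and 0.558, 1.70 and 2.44 CPM in the mutant, with no overlap and a log2 fold change of -1.24 ± 0.18 (adjusted p = 1.5e-04). Cpr62Bc had 4.35, 6.39 and 12.7 CPM in wild type and 1.73, 3.11 and 4.52 CPM in the mutant, where 11 of 12 libraries lay below the wild-type range, and its log2 fold change was -1.10 ± 0.18 (adjusted p = 4.5e-04). Both genes were low in the mutant at every time.

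Cpr97Eb had 4.35, 7.39 and 10.5 CPM in wild type and 2.05, 3.11 and 6.41 CPM in the mutant, with a log2 fold change of -0.93 ± 0.23 (adjusted p = 0.011). The mutant libraries fell into separate ranges by number, with a mean of 2.38 CPM in replicate 1 and 5.40 CPM in replicate 2. Cpr51A had 1.37, 2.18 and 7.24 CPM in wild type and 1.33, 1.70 and 2.39 CPM in the mutant, and the genotypes overlapped, with 4 of 12 wild-type libraries above every mutant library. Its log2 fold change of -0.50 ± 0.16 (adjusted p = 0.034) lost its call in 19 of 38 alternatives, and CG30197 overlaps it on the other strand.

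The 19 genes under 1 CPM included 4 that fell, each on few counts. Cpr49Af had 230 counts summed over the 12 wild-type libraries and 114 over the 12 mutant libraries, with a log2 fold change of -1.22 ± 0.35 (adjusted p = 0.020). Cpr62Ba had 165 and 111 counts and a log2 fold change of -0.75 ± 0.24 (adjusted p = 0.031), a call lost in 18 of 37 alternatives. Cpr78Ca had 141 counts in wild type and 19 in the mutant, where 6 of 12 libraries had none, and Cpr49Ah had 100 and 43 counts. Both are counted as lower above, but they met the count minimum through wild-type libraries alone, so their calls support nothing further. Fitted fold changes of Cpr78Ca and Cpr49Ah are not given because they had a mutant time with no counts in either library, at which a fold is not defined. The call for Cpr78Ca was lost without wild-type ZT2 replicate 1, and that for Cpr49Af without wild-type ZT18 replicate 1, without the 2 wild-type libraries low in long transcripts and with ZT6 to ZT18 only.

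The 3 genes that rose were spread over the range of levels. Cpr47Ee had 15.8, 22.1 and 38.9 CPM in wild type and 29.0, 35.3 and 39.2 CPM in the mutant. Its highest wild-type value came from ZT2 replicate 2, the library that stood apart, and the other 11 wild-type libraries lay below every mutant library. The log2 fold change was 0.59 ± 0.11 (adjusted p = 0.0018).

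The Tweedle gene TwdlE had 0, 1.12 and 3.77 CPM in wild type and 2.14, 3.57 and 4.50 CPM in the mutant, and was at 0 in 2 wild-type libraries. The genotypes overlapped at their edges, and its log2 fold change was 1.51 ± 0.32 (adjusted p = 0.0045). It overlaps lectin-28C on the other strand. Cpr72Eb had 16 counts over the wild-type libraries, 7 of which had none, and 61 counts over the mutant libraries. It met the count minimum through mutant libraries alone, so its call supports nothing further, and that call was lost without mutant ZT10 replicate 2.

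**Figure D3:**
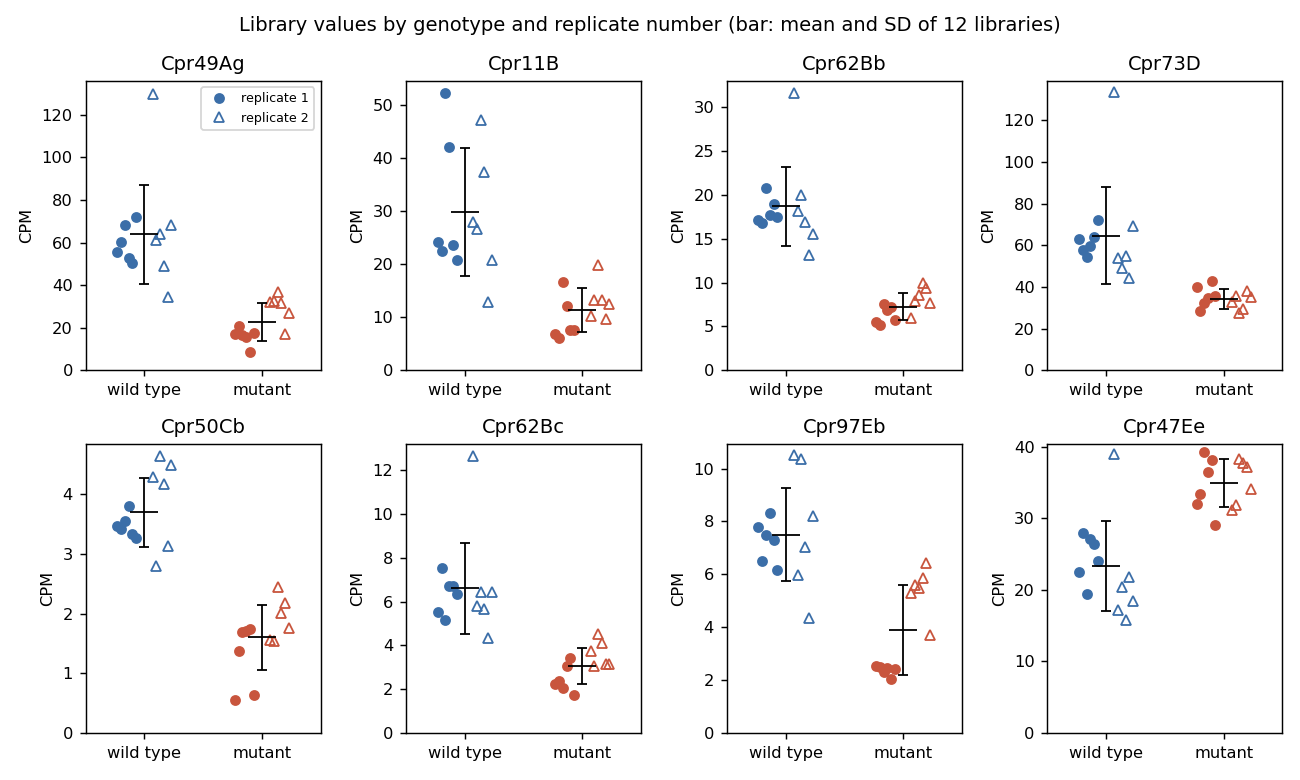
CPM of 8 called cuticle protein genes in each of the 24 libraries, by genotype and replicate number (filled circles replicate 1, open triangles replicate 2), with the mean and SD of 12 libraries. Mutant values of Cpr62Bb, Cpr73D and Cpr50Cb lie wholly below wild type, those of Cpr97Eb split by replicate number, and the highest wild-type point of Cpr47Ee is ZT2 replicate 2 at 38.9 CPM.

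Some of the highest members did not pass the test. Cpr65Au, the highest of all per length, had 123, 206 and 306 CPM in wild type and 97.6, 146 and 257 CPM in the mutant. The genotypes overlapped, and its log2 fold change of -0.39 ± 0.15 had an adjusted p of 0.057 by edgeR. DESeq2 called it lower, as it did 15.6% of all genes. Cpr72Ec of the lens had 64.9, 118 and 476 CPM in wild type and 50.2, 144 and 280 CPM in the mutant, with a log2 fold change of 0.11 ± 0.19 (adjusted p = 0.70). Cpr57A had a log2 fold change of -0.26 ± 0.13 (adjusted p = 0.16). TwdlG ranged from 5.52 to 13.1 CPM in wild type and from 7.58 to 10.9 CPM in the mutant, with a log2 fold change of -0.03 ± 0.11 (adjusted p = 0.86).

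The remaining uncalled genes were low. Cpr100A averaged 3.56 CPM over the mutant replicate 1 libraries and 8.72 CPM over replicate 2, on either side of its wild-type median of 7.49 CPM. Cpr47Ef, next to Cpr47Ee, had a log2 fold change of 0.34 ± 0.15 (adjusted p = 0.099), and 6 of its 12 mutant libraries lay above every wild-type library. Its log2 fold change was 0.71 within replicate 1 and -0.06 within replicate 2 libraries. TwdlT had 0.13 ± 0.15, TwdlW -0.27 ± 0.17 and Cpr60D -0.40 ± 0.19 on the log2 scale. For Ccp84Ag, the single Ccp gene, with 41 and 40 counts over the libraries of wild type and mutant, no fold change could be estimated. The other 16 uncalled genes (Cpr47Ea, Cpr49Aa, Cpr64Aa, Cpr64Ac, Cpr64Ad, Cpr67Fb, Cpr72Ea, Cpr76Bc, Cpr76Bd, Cpr78Cc, Cpr92F, Cpr97Ea, Lcp65Ac, Lcp65Ag2, Lcp65Ag3 and Twdlalpha) were at 0 to 3.28 CPM in single libraries. Apart from Cpr67Fb, which had no counts at 3 combinations of genotype and time, their log2 fold changes ran from -0.90 ± 0.49 in Cpr97Ea to 0.85 ± 0.48 in Cpr78Cc. Of the 44 genes, 22 had an unadjusted p under 0.05 by edgeR, as did 4753 of the 11096 genes tested.

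The size of the difference was not the same for the replicate numbers, though this contrast was not itself tested. All 15 genes that fell had negative values both within replicate 1 and within replicate 2 libraries, and 12 of them fell more in replicate 1. They were called on these same libraries, so the shared sign is a description. Cpr78Ca and Cpr49Ah among them met the count minimum through wild-type libraries alone. Over all genes, 36.5% were called in either direction within replicate 1 and 1.88% within replicate 2, so the contrast was not particular to these members. Cpr49Ag had a log2 fold change of -1.95 within replicate 1 and -1.11 within replicate 2, Cpr11B of -1.71 and -1.05, and Cpr97Eb of -1.61 and -0.47. Cpr67B, at -0.61 and -0.06, hardly differed within replicate 2, whereas Cpr73D was nearly the same at -0.81 and -0.91.

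Within replicate 1 libraries alone, 17 members were called lower and 3 higher, against backgrounds of 19% and 17.5% of all genes. Within replicate 2 libraries alone, Cpr11B, Cpr49Ag and Cpr50Cb were called lower and 0 members higher, against 0.775% and 1.11% of all genes. These are also the 3 genes that kept their call in all 38 alternatives.

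Of the 15 genes that fell, 13 had a lower mutant value at all 6 times, with Cpr51A at 5 and Cpr66D at 4. They were called on the mean of these same times, so this is a description, and 64.2% of all genes called lower were likewise below 0 at every time. At single times, with 2 libraries against 2, few members passed. Cpr62Bb was the 1 member called at ZT6 (0.424% of all genes were called lower then), and had 16.8 and 18.2 CPM in wild type and 5.13 and 7.84 CPM in the mutant, which is -1.43 ± 0.29 on the log2 scale (adjusted p = 0.028).

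At ZT10, Cpr62Bb and Cpr11B were called lower (background 0.694%). Cpr11B had 52.2 and 47.2 CPM in wild type and 16.7 and 19.9 CPM in the mutant at that time (-1.44 ± 0.33, adjusted p = 0.048). It was also the 1 member called at ZT14 (background 0.379% lower), with 42.1 and 37.3 against 12.1 and 13.3 CPM (-1.64 ± 0.34, adjusted p = 0.030). At ZT22 Cpr62Bb alone was called (background 0.631% lower), with 17.4 and 15.6 against 5.72 and 7.63 CPM (-1.30 ± 0.29, adjusted p = 0.039). This call was lost without either wild-type ZT22 library, and without the 2 wild-type libraries low in long transcripts. Those fits left a single wild-type library at ZT22. At ZT18, edgeR called 0 members (background 0.757%), with 6 at an unadjusted p under 0.05, as were 644 of 11096 genes. DESeq2 called 2 members at ZT18, Cpr49Ag and Cpr49Ah (background 1.68%).

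At ZT2, 9 members were called, all of them lower in the mutant: Cpr11B, Cpr49Ag, Cpr50Cb, Cpr51A, Cpr57A, Cpr62Bb, Cpr62Bc, Cpr66D and Cpr73D. The background at that time was 14.4% of all genes called and 9.33% called lower. Cpr62Bb had 17.1 and 31.7 CPM in wild type and 5.52 and 5.90 CPM in the mutant (-2.08 ± 0.30, adjusted p = 0.0013). Cpr73D had 63.0 and 134 CPM against 40.1 and 32.6 CPM (-1.43 ± 0.27, adjusted p = 0.011). In all 9 genes the second wild-type value, from the library that stood apart, was above the first.

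That library was the highest of the 12 wild-type libraries for 17 of the 44 members. Cpr57A had 43.9 and 99.8 CPM in wild type at ZT2 against 28.2 and 28.1 CPM in the mutant (-1.35 ± 0.33, adjusted p = 0.032), and Cpr51A had 2.98 and 7.24 CPM against 1.80 and 1.55 CPM. Without wild-type ZT2 replicate 2, Cpr62Bb was the 1 member called at ZT2 (background 0.852%), and without replicate 1, 18 were (background 49.9%). Leaving out mutant ZT2 replicate 1 or 2 left 1 and 2 members (backgrounds 0.575% and 0.697%).

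Whether the genotype difference itself varied over the day was tested with the 5 interaction terms together. By edgeR 0 members and 0% of all genes passed, and DESeq2 called 0 members. An unadjusted p under 0.05 by edgeR was found for 2 members (Cpr66D and Cpr57A) and for 267 of 11096 genes. Without wild-type ZT2 replicate 1, 4 members passed (Cpr51A, Cpr57A, Cpr66D and Cpr73D), as did 18.3% of all genes.

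A daily course was measured in a few members. A cosine of 24 h was called in wild type for 4 of the 44 genes (background 5.61%). In Cpr67B the mean fell from 141 CPM at ZT2 to 92.7 at ZT6 and 74.5 at ZT10, and was 87.0 at ZT14, 131 at ZT18 and 227 CPM at ZT22. Both replicates were highest at ZT22, at 236 and 219 CPM, and the fitted log2 amplitude was 0.74 ± 0.12 (SE) with a peak at 22.3 ± 0.6 h (adjusted p = 2.0e-04). In the mutant the means of Cpr67B ran from 68.2 CPM at ZT10 to 126 CPM at ZT22, an amplitude of 0.39 ± 0.08 (adjusted p = 0.13).

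By the mean of the libraries at each time, both lens genes were highest at ZT2. Cpr66D had 39.2 and 58.2 CPM in wild type at ZT2 and between 5.45 and 12.9 CPM in the 10 other libraries, a sharp morning value rather than a smooth wave. The fitted log2 amplitude was 1.04 ± 0.30, with a peak at 2.70 ± 1.11 h (adjusted p = 0.0066). In the mutant it had 19.5 and 21.9 CPM at ZT2 and 4.17 to 12.7 CPM at other times, with an amplitude of 0.83 ± 0.20 (adjusted p = 0.21).

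At ZT2 the mutant level of Cpr66D was lower than wild type by -1.23 ± 0.25 on the log2 scale (adjusted p = 0.017), a call that was lost without wild-type ZT2 replicate 2. At ZT18 and ZT22 it was 0.42 ± 0.26 and 0.13 ± 0.26, neither of which passed. Cpr72Ec had 203 and 476 CPM in wild type at ZT2, 78.1 and 75.6 CPM at ZT18 and 211 and 133 CPM at ZT22. Wild-type replicate 1 of Cpr72Ec was thus highest at ZT22, in the dark, and the 476 CPM came from the library that stood apart. Its amplitude was 0.81 ± 0.23 with a peak at 2.12 ± 1.06 h (adjusted p = 0.019) in wild type and 0.91 ± 0.18 with a peak at 2.91 ± 0.74 h (adjusted p = 0.071) in the mutant. The wild-type call of Cpr72Ec was lost without ZT2 replicate 2, or without ZT14 replicate 1.

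The fourth gene, Cpr72Eb, lies beside Cpr72Ec and had a wild-type amplitude of 0.27 ± 0.07 (adjusted p = 0.020), on 16 counts in all. Cpr11B was highest at ZT10 in both genotypes, with means of 49.7 CPM in wild type and 18.3 CPM in the mutant. Its wild-type amplitude was 0.59 ± 0.17 with a peak at 10.2 ± 1.1 h, just short of the threshold (adjusted p = 0.055), and DESeq2 called it along with 7 other members (background 14.8%).

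In the mutant edgeR called 0 members rhythmic (background 1.09%), with 13 at an unadjusted p under 0.05, as were 756 of 11096 genes. DESeq2 called 2 members rhythmic there, Cpr67B and Cpr72Ec (background 2.23%). The difference of the rhythms between genotypes was itself tested: 0 members and 0% of all genes passed by edgeR, and DESeq2 called 0 members. By edgeR 4 members had an unadjusted p under 0.05, as did 550 of 11096 genes. A call in wild type and none in the mutant therefore does not show that any of these courses differed.

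**Figure D4:**
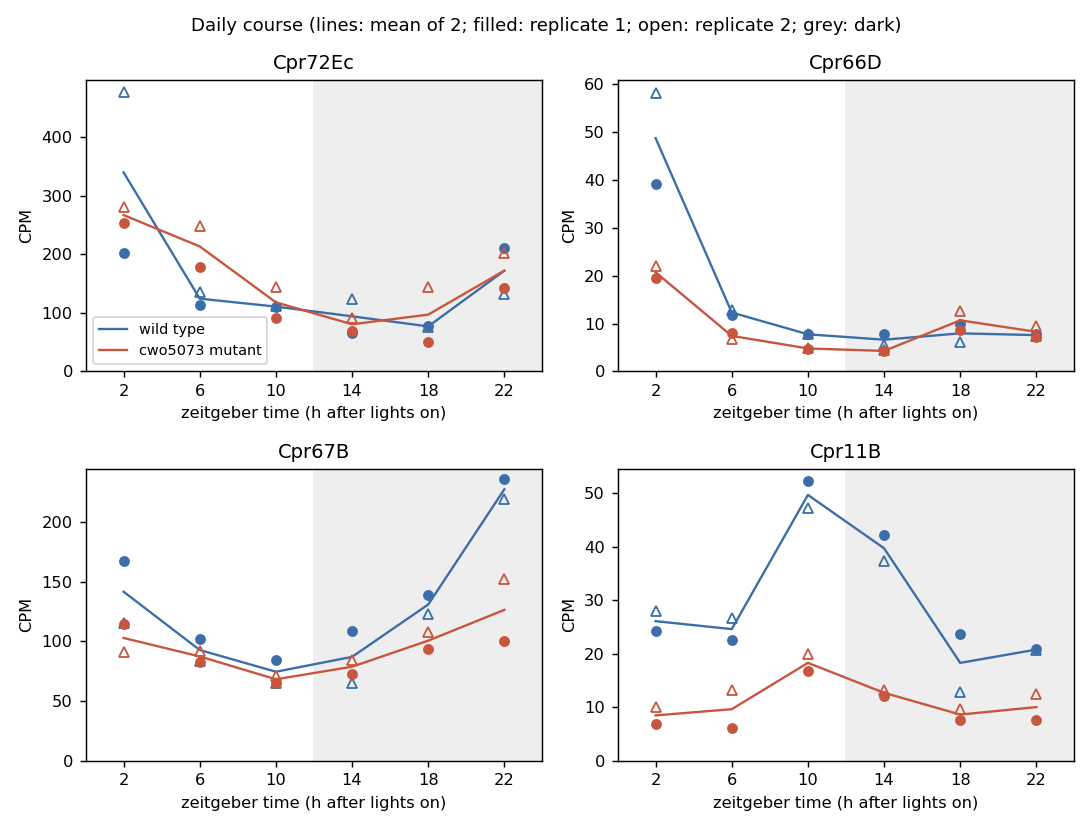
CPM of Cpr72Ec, Cpr66D, Cpr67B and Cpr11B against zeitgeber time in wild type (blue) and the cwo5073 mutant (red), with lines through the mean of 2 libraries, filled circles for replicate 1, open triangles for replicate 2 and grey for the dark phase. Cpr66D stands at 39.2 and 58.2 CPM at ZT2 in wild type and lower at every other time, Cpr67B is highest at ZT22, and Cpr11B is highest at ZT10 in both genotypes.

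Many cuticle protein genes lie next to each other in the genome, and some neighbours were called lower together. With gaps of at most 20000 bases, 26 members fell into 9 groups and 18 stood alone. On the dm6 build, Cpr49Ae, Cpr49Af, Cpr49Ag and Cpr49Ah lie at chr2R:12402216-12415170, all on the plus strand. Cpr49Ae, Cpr49Af and Cpr49Ag were lower in the mutant. Cpr49Ah was also called lower, but it met the count minimum through wild-type libraries alone and adds nothing to the group. Cpr49Aa, on the same strand, ends 24838 bases before Cpr49Ae and so fell outside the group by this gap, and its log2 fold change of 0.61 ± 0.54 did not pass. Cpr62Ba, Cpr62Bb and Cpr62Bc lie at chr3L:1824129-1842084, all on the minus strand, and 3 of 3 were lower, with log2 fold changes of -0.75 to -1.36. The call of Cpr62Ba was lost in 18 of 37 alternatives.

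Other groups did not share a call. At chr3L:6130386-6145393, Cpr65Au, Lcp65Ac, Lcp65Ag2 and Lcp65Ag3 had 0 calls by edgeR and log2 fold changes of -0.39 to 0.05. DESeq2 called Cpr65Au, and Cpr65Au was the single member of this group with an unadjusted p under 0.05. In the group of Cpr47Ea, Cpr47Ee and Cpr47Ef, at chr2R:11251751-11272575, 1 of 3 was higher, and Cpr72Ea, Cpr72Eb and Cpr72Ec, at chr3L:16362603-16367340, had 1 of 3 higher. In each of the groups of Cpr97Ea and Cpr97Eb and of Cpr78Ca and Cpr78Cc, 1 of 2 was lower. Cpr72Eb and Cpr78Ca, the called genes of their groups, met the count minimum through a single genotype alone. By chromosome arm, 21 members are on 3L, 12 on 2R, 8 on 3R, 2 on X and 1 on 2L.

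Transcript models were short, which bears on the balance of long and short transcripts in each library. That balance was tilted most to long ones in mutant replicate 1 and most to short ones in wild-type ZT2 replicate 2 and ZT22 replicate 1. The median length of a member was 1000 bases, against 1829 bases over all genes tested, and 40 of 44 members were shorter than that median. Of the 44 genes, 31 had a single transcript model. Cpr65Au was measured mainly as its form of 453 bases, which held 96.3% of its wild-type FPKM and 97.6% of its mutant FPKM, and Cpr11B mainly as its form of 818 bases, at 92.4% and 95.1%.

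In Cpr62Bb the form of 904 bases was at 11.6 ± 6.0 FPKM (SD, n = 12) in wild type, against 2.95 ± 2.45 FPKM in the mutant, and the form of 992 bases at 7.07 ± 5.46 and 4.14 ± 2.06 FPKM. The share of the shorter form was 62.2% in wild type and 41.6% in the mutant, though this form was estimated at 0 in 5 of the 24 libraries. The forms overlap, their split was estimated by the submitters' software, and the difference in share was not tested. In Cpr62Bc the forms of 1134 and 1017 bases had 2.41 ± 2.14 and 3.36 ± 3.02 FPKM in wild type, and 1.25 ± 1.23 and 1.39 ± 1.54 FPKM in the mutant. The form of 1017 bases was estimated at 0 in 11 of the 24 libraries.

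Other genes of cuticle formation were counted for comparison, over all times. Of 11 measured structural cuticle genes outside the naming rule, 4 rose and 1 fell. Resilin, which encodes an elastic cuticle protein, was higher by 1.05 ± 0.15, dp (dumpy), a giant matrix protein that anchors epidermis to cuticle, by 0.80 ± 0.15, and retinin, a protein of the corneal surface, by 0.50 ± 0.16 on the log2 scale. Mean retinin was 761 CPM in wild type, 778 CPM in mutant replicate 1 and 1343 CPM in mutant replicate 2, so its rise lay mainly in replicate 2. The pupal cuticle protein gene Pcp had a log2 fold change of -1.37 ± 0.19.

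Of 18 genes of chitin synthesis and modification, 1 rose (Cda5, a chitin deacetylase gene, 0.78 ± 0.16) and 1 fell (obst-B, which encodes a chitin-binding protein, -0.86 ± 0.18). Of 15 chitinase and imaginal disc growth factor genes, Idgf5 (0.85 ± 0.20) and Cht6 (0.47 ± 0.15) rose and Cht7 (-0.70 ± 0.14) fell. These lists had medians of -0.11 and 0.05.

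Of 20 tanning and pigment genes, 5 rose and 2 fell, with a list median of 0.26. Pu, the gene of the enzyme that begins pteridine and cofactor synthesis, had a log2 fold change of -1.51 ± 0.12, yellow-d one of 1.25 ± 0.09, rk, the receptor gene of the tanning hormone bursicon, one of 0.73 ± 0.17, and Duox, the gene of an enzyme that makes hydrogen peroxide, one of 0.66 ± 0.17. Of 20 genes of the ecdysone response and moulting, Hr38 (0.63 ± 0.20) and Eip74EF (0.37 ± 0.08) rose and no other gene passed. The median of all genes was -0.01 and the background was 14.1% called higher and 13.9% lower, the same as stood beside the members' counts.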

How the data were processed

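Poly(A) RNA of heads was read as 75-base single-end reads, from libraries made with a directional kit and 12 PCR cycles, per the labels' protocols. STAR 2.6.1d, StringTie, DESeq2 and the dm6 build appear in the submitters' processing notes without roles or options, and no strand setting of the counting is named. The gene table deposited by the authors holds estimated counts, as whole numbers that they did not normalize. In all 16722 genes compared they equalled deposited coverage times transcript length over 75, rounded up. Per the file headers, each of the 24 transcript tables holds FPKM and a coverage signal per base. The authors' own gene FPKM table covers 8489 genes and 19 members and was used for nothing here. Gene names turned into dates (5) were left out.

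Counts were analysed in R 4.3.3 with edgeR 4.0.16 (filterByExpr on 12 groups plus all members, 11096 genes, 43 of 44 members kept by the filter itself; TMM; glmQLFit and glmQLFTest; Benjamini-Hochberg adjustment, threshold 0.05). The overall difference is the mean over the 6 mutant groups less the mean over the 6 groups of wild type. Each time was tested alone, and the interaction and a 24 h cosine and sine per genotype were tested jointly. Log2 fold changes average log values over times, so they differ from ratios of mean CPM. Amplitudes and peaks come from least squares on log2 CPM after a small constant was added, which lowers the amplitudes of weakly counted genes. The adjusted p-values beside them come from the edgeR fit to counts. Alternatives were DESeq2 1.42.0, limma 3.58.1 on log2(FPKM + 1) or (FPKM + 0.1), other scaling and filters, replicate terms, length offsets and left-out libraries. On simulated data for the difference over all times, 100% of 200 genes changed 2-fold were recovered among 10871. The simulated counts were independent with a single spread for all genes, and only well-counted genes were changed. The recovery therefore does not cover weakly counted members, deviations shared by replicate number or a library that stood apart. Tables and figures used Python 3.11.15, pandas 2.3.3, numpy 2.4.6 and matplotlib 3.10.9.

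Total counts per library were 11319605 to 19638611. The labels name no molecular identifiers, so PCR copies may not be independent, and floors cover counting error only. Same-numbered mutant libraries deviated together (correlation over 0.1 in 15 of 15 pairs of times, against 6 of 15 in wild type and 3 of 6 between genotypes), and p-values of the overall difference leave such a spread out. The treatment text names collection at ZT2 and ZT14, and the titles' 6 times were followed.

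The members, gene lists and markers were chosen with earlier results of these data known. Values were given for the 12 members of highest mean FPKM, those called in any test, and the lens genes, with library values for called and lens members of at least 1 mean CPM. Of the lists, the 4 largest changes at most were named. Values of Cpr100A, Cpr47Ef, TwdlT, TwdlW, Cpr60D, Ccp84Ag and the Lcp genes fall outside that rule and were chosen after being seen. Reads shared with overlapping gene models are uncertain for Cpr57A, Cpr64Ad, TwdlT and Twdlalpha (same strand), and for Cpr11B, Cpr47Ea, Cpr51A, Cpr64Aa, Cpr64Ac, Cpr67Fb, TwdlE and Twdlalpha (opposite strand), and 33 of 44 members have none. Sequence identity between copies was not computed, and no sequences are shown.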

Additional observations from a re-analysis of the deposited data

How the results depend on the processing

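Of 38 alternatives, 24 left out 1 library each, and no called member reversed. Over all times the number of members lower in the mutant was 8 at ZT6 to ZT18 only (5.52% of all genes). It was 3 with replicate 2 libraries only (0.775%), where the number higher was 0 (1.11%). With single libraries left out, the members called lower or higher changed, and the share of all genes called lower or higher changed too. At ZT2 most of the 9 calls were lost without the 2 wild-type libraries low in long transcripts, as were most calls over all genes. Counts at ZT6, ZT10, ZT14, ZT18 and ZT22 were 2, 4, 1, 2 and 6 by DESeq2 (1.57%, 2.78%, 1.87%, 1.68% and 4.2% of all genes). With gene length offsets they were 2, 1, 2, 3 and 1 (1.05%, 1.5%, 1.14%, 1.14% and 1.38%). With ZT6 to ZT18 only, ZT10 had 4 and ZT18 had 1 (2.14% and 1.17% of all genes). Ranges over left-out libraries were 0 to 2, 0 to 3, 0 to 3, 0 to 1 and 0 to 3 for these times, 0 to 4 for the interaction, 3 to 5 for the wild-type rhythm, 0 to 2 for the mutant rhythm and 0 for their difference. DESeq2 called 8 members rhythmic in wild type and 2 in the mutant (14.8% and 2.23% of all genes). The mutant rhythm had 1 with gene length offsets (1.57% of all genes), and 3 without the 2 wild-type libraries (2.2%). The causes were not tested.

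Replicate numbers are not shown to pair wild-type with mutant libraries, though mutant libraries of one number deviated together. With the replicate block, 15 members were again lower and 3 higher (16.9% and 15.4% of all genes). In that fit ZT18 had 1, ZT22 had 2 and the mutant rhythm 1 (0.937%, 1.32% and 1.17%). With the block within genotype, 18 were lower and 4 higher (18% and 16.4% of all genes), with Cpr65Au, Cpr97Ea and Cpr100A added to the lower and Cpr47Ef to the higher genes. There ZT6, ZT10, ZT18, ZT22 and the mutant rhythm had 2, 4, 1, 7 and 2 (1.1%, 2.21%, 1.02%, 2.77% and 1.36%). With gene length offsets and the replicate block, 12 were lower (13.7% of all genes). ZT6, ZT14, ZT18 and the mutant rhythm then had 2, 2, 2 and 1 (1.33%, 1.5%, 1.3% and 1.77%). Where a library was left out, the one remaining in its group was assumed to vary like the other groups. Genes under 1 CPM rest on few counts, and their values are the least precise.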
